A study of Arabidopsis thaliana with 4 samples.

Results

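The 35 genes described here encode proteins that degrade messenger RNA or govern its decay: decapping factors, 5′-to-3′ exonucleases of the XRN family, deadenylases, factors of nonsense-mediated decay (NMD), the RNA exosome with its helicases and related 3′-to-5′ exonucleases, the SKI complex, and the poly(A)-binding proteins PAB2, PAB4 and PAB8. They were chosen by locus tag from 33544 genes listed in each table, and all 35 were found. Of these, 9 carry no gene name in the deposited tables or in RefSeq and are given by their locus tag and RefSeq product. The libraries hold polyadenylated RNA of whole *Arabidopsis thaliana* seedlings harvested at 14 days, 2 from *ect2*, a line with a T-DNA insertion in *ECT2*, and 2 from wild-type Col-0, the background of that line. Plants of both genotypes grew on Murashige and Skoog medium or soil in long days with no treatment. The labels do not name the insertion allele, and nothing in them tells whether the libraries of 1 genotype were made from independent plant batches. The p-values therefore reflect library-to-library spread, which may be technical. ECT2 is a cytoplasmic reader of N6-methyladenosine in mRNA, with a YTH domain, and the comparison asks whether transcripts of the decay machinery differ in abundance when it is disrupted.

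Most cytoplasmic mRNAs are first deprived of their poly(A) tail by the CCR4-NOT complex, whose catalytic subunits include proteins of the CAF1 family. The shortened transcript is then either decapped by DCP2 and degraded from its 5′ end by XRN4, or degraded from its 3′ end by the exosome, to which the SKI complex delivers cytoplasmic substrates. Poly(A)-binding proteins coat the tail, and UPF proteins direct transcripts with premature stop codons into decay.

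Read totals are not stated and depth is known only in relative terms. From the steps between low values, with Col-0 replicate 2 set to 1, depth was 1.39 and 0.966 for the *ect2* libraries and 1.45 for Col-0 replicate 1. Values are taken to be FPKM, fragments scaled by transcript length and library size. Any comparison of levels between genes rests on this inferred unit. Transcripts of the disrupted gene, *ECT2* (AT3G13460), stood at 9.07 and 8.58 FPKM in *ect2*, against 137 and 76.7 FPKM in Col-0. Its difference of -3.40 ± 0.33 (SE) on the log2(FPKM + 1) scale did not pass over all genes (limma, adjusted p = 0.153). With 1 library left out the difference lay between -3.81 and -2.98, and the adjusted p was 1.00 without either *ect2* library, 0.0193 without Col-0 replicate 1 and 0.00329 without Col-0 replicate 2 (limma). Such a fit assumes that the lone library varies like those of the other genotype. Leaf markers summed to between 53166 and 60177 FPKM in every library (4 genes) and root markers to between 1279 and 1633 FPKM (5 genes), so both organs were present. Most of the root sum was 1 gene, *PYK10* (1206 to 1559 FPKM). All 5 root markers reached 1 FPKM in every library, the lowest value being 1.62 FPKM. In RNA of whole seedlings, fewer cells of a type and less RNA per cell cannot be told apart. Col-0 replicate 1 stood apart in seed storage markers, which summed to 8.36 and 7.43 FPKM in *ect2* and to 227 and 4.64 FPKM in Col-0 (6 genes).

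All 35 genes reached 1 FPKM in all 4 libraries and were tested. None passed an adjusted p of 0.05 between *ect2* and Col-0 (limma over all 19308 genes tested, two-sided, Benjamini-Hochberg), where 0.0259% of all genes did, and 0 had an unadjusted p below 0.05, where 4.86% of all genes did. The smallest adjusted p among them was 0.842. Their median difference, *ect2* minus Col-0 on the log2(FPKM + 1) scale, was -0.018, beside -0.0096 over all genes tested, with 15 positive and 20 negative. Both *ect2* libraries lay above both Col-0 libraries for 4 of the 35 (17.5% of all genes tested) and below both for 7 (20.2% of all genes tested), so neither count exceeded its background share. Apart from *CAF1a* and *CAF1b*, the 95% confidence intervals of the differences lay between -1.09 and 1.06 for all 33 other genes. A p that misses the threshold does not show that the genotypes are alike, and these intervals give the sizes of change the data leave possible.

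**Figure D1:**
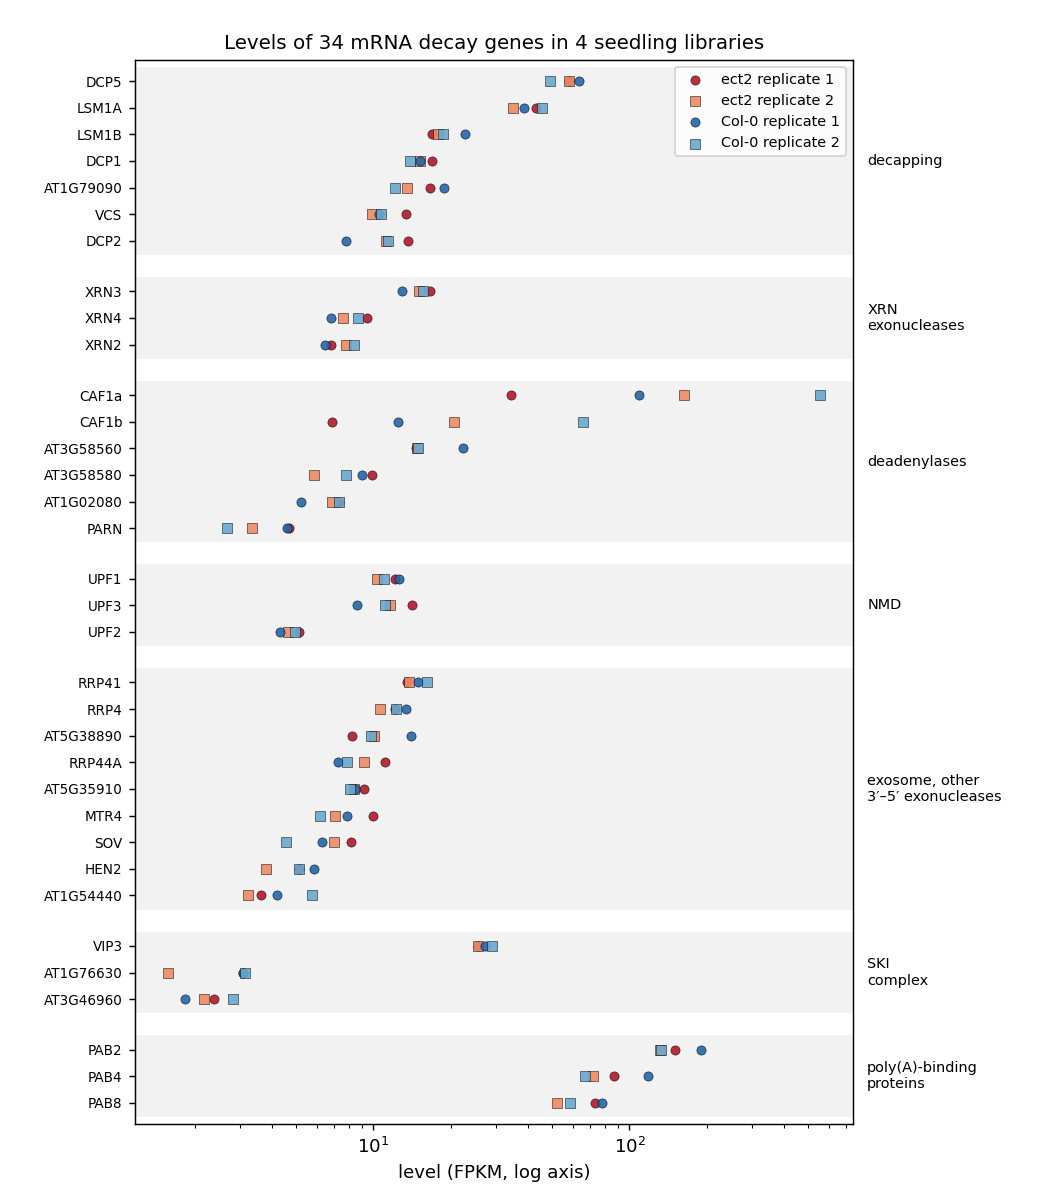
Level of 34 of the 35 genes (horizontal axis, FPKM, log scale) in the 2 *ect2* libraries (red and orange) and the 2 Col-0 libraries (dark and light blue), by functional group and in order of mean level. *CAF1a* and *CAF1b* spread over a wide range, from 34.3 to 556 FPKM and from 6.86 to 65.6 FPKM, while the libraries lie close together for most other genes.

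Levels spanned a wide range. By the mean of 4 libraries the order ran from *CAF1a* (216 FPKM), *PAB2* (151 FPKM), *PAB4* (86.1 FPKM), *PAB8* (65.5 FPKM), *DCP5* (57.1 FPKM) and *LSM1A* (40.7 FPKM) down to *PARN* (3.83 FPKM), AT1G76630 (2.72 FPKM) and AT3G46960 (2.31 FPKM). The range of *CAF1a* over libraries overlapped that of *PAB2*, so their order is not resolved. Of neighbours in the order, only *PAB2* and *PAB4*, *DCP5* and *LSM1A*, *LSM1A* and *VIP3*, and *RRP41* and *RRP4* had ranges that did not overlap. *CAF1a* exceeded 95.9% of all genes tested in mean level and *PAB2* 94.3%, whereas AT3G46960 exceeded 12.6%.

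The deadenylase group held the genes that varied most. *CAF1a* (AT3G44260; chromosome 3, 15952008 to 15953346, minus strand) and *CAF1b* (AT5G22250; chromosome 5, 7365477 to 7366799, minus strand) encode homologues of the yeast CCR4-associated factor 1 with deadenylation activity and a role in defence, and are known as genes that respond quickly to wounding and other stress. *CAF1a* had 34.3 and 164 FPKM in *ect2* and 109 and 556 FPKM in Col-0. *CAF1b* had 6.86 and 20.7 FPKM in *ect2* and 12.5 and 65.6 FPKM in Col-0. For both genes replicate 2 was the high library of each genotype, and the groups overlapped, since *ect2* replicate 2 lay above Col-0 replicate 1.

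Within *ect2*, replicate 2 held 4.77 times the *CAF1a* level of replicate 1, and within Col-0 5.11 times. For *CAF1b* these ratios were 3.02 in *ect2* and 5.25 in Col-0. These were the only 2 of the 35 genes in which replicate 2 was at least 2-fold above replicate 1 in both genotypes, which 1.27% of all genes tested showed. The highest library was 16.2 times the lowest for *CAF1a* and 9.57 times for *CAF1b*, and at most 2.01 times for the other 33. In all, 3 of the 35 genes spanned 2-fold or more between libraries, the third being AT1G76630, and 29.0% of all genes tested did.

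The genotype means of *CAF1a* were 99.0 ± 91.5 FPKM in *ect2* and 332 ± 316 FPKM in Col-0 (SD, n = 2 each). The difference was -1.70 ± 1.13 (SE) on the log2(FPKM + 1) scale and did not pass the test (limma, adjusted p = 0.844). For *CAF1b* the means were 13.8 ± 9.78 FPKM in *ect2* and 39.1 ± 37.6 FPKM in Col-0, a difference of -1.20 ± 0.94 (limma, adjusted p = 0.844). The 95% intervals ran from -4.79 to 1.39 for *CAF1a* and from -3.72 to 1.33 for *CAF1b*, so a fall, no change and a rise all lie within them. Both values moved with single libraries: the *CAF1a* difference was -0.59 without *ect2* replicate 1, -2.81 without *ect2* replicate 2, -2.87 without Col-0 replicate 1 and -0.53 without Col-0 replicate 2. For *CAF1b* it was -0.47, -1.93, -2.35 and -0.048 without the same libraries. The *CAF1a* level was 5.003 and 7.91 times that of *CAF1b* in *ect2* and 8.71 and 8.47 times in Col-0, so *CAF1a* was the more abundant of the pair in every library.

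A list of 16 touch and handling markers varied between the same libraries. All 16 were detected in every library, at 3.13 FPKM or more, and none was at 0. Replicate 2 was above replicate 1 in both genotypes for 15 of 16, beside 4494 of all 19308 genes tested. It was at least 2-fold above in both genotypes for 14, beside 1.27% of all genes tested. The median ratio of replicate 2 to replicate 1 was 3.32 in *ect2* and 7.22 in Col-0. The list summed to 1401 and 2446 FPKM in *ect2* and to 469 and 3870 FPKM in Col-0. The transcription factor gene *ZAT10* (AT1G27730) had 17.0 and 112 FPKM in *ect2* and 65.9 and 313 FPKM in Col-0, and *ERF5* (AT5G47230) had 6.76 and 21.8 FPKM in *ect2* and 19.5 and 65.1 FPKM in Col-0. Both genes had the library order of *CAF1a*, lowest in *ect2* replicate 1, then Col-0 replicate 1, then *ect2* replicate 2, and highest in Col-0 replicate 2. This order held for 8 of the 16 markers, with no share over all genes computed, and the other 8 were lowest in Col-0 replicate 1. Among those 8 was the calmodulin-like gene *TCH3* (AT2G41100), at 781 and 774 FPKM in *ect2* and at 49.4 and 666 FPKM in Col-0. The part of handling in the *CAF1a* and *CAF1b* values was not tested, and the labels give no harvest times.

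**Figure D2:**
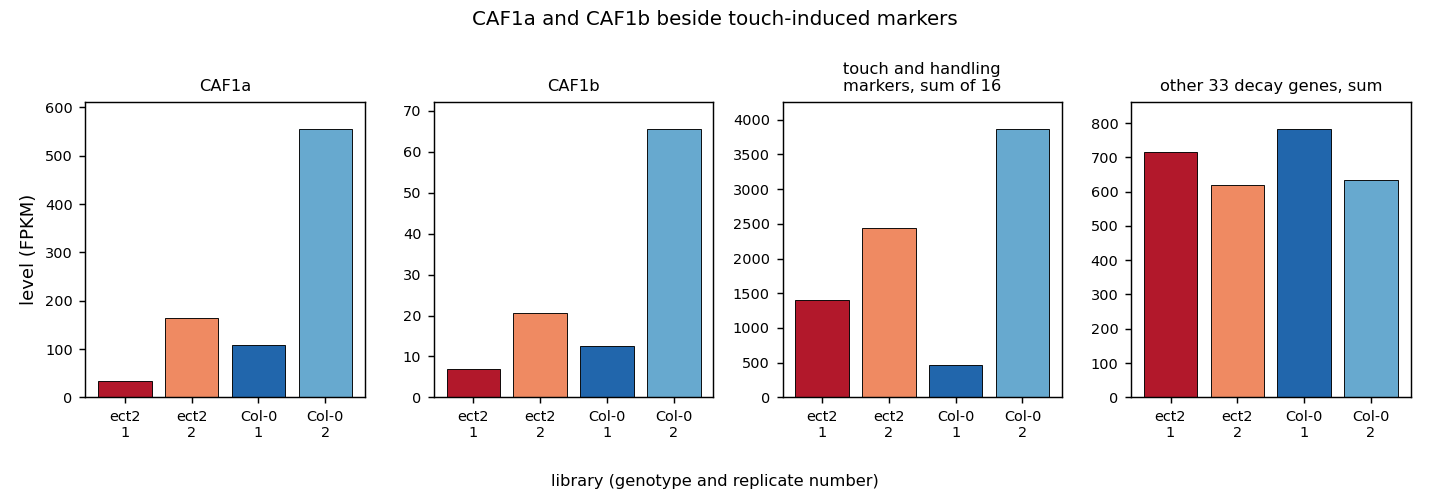
Levels (FPKM, linear axes that start at 0) of *CAF1a*, *CAF1b*, the sum of 16 touch and handling markers and the sum of the other 33 decay genes, with 1 bar per library. *CAF1a* and *CAF1b* are highest in Col-0 replicate 2 (556 and 65.6 FPKM) and higher in replicate 2 than in replicate 1 of each genotype, as is the marker sum, while the 33 other genes sum to 717 and 618 FPKM in *ect2* and 783 and 632 FPKM in Col-0.

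**Figure D3:**
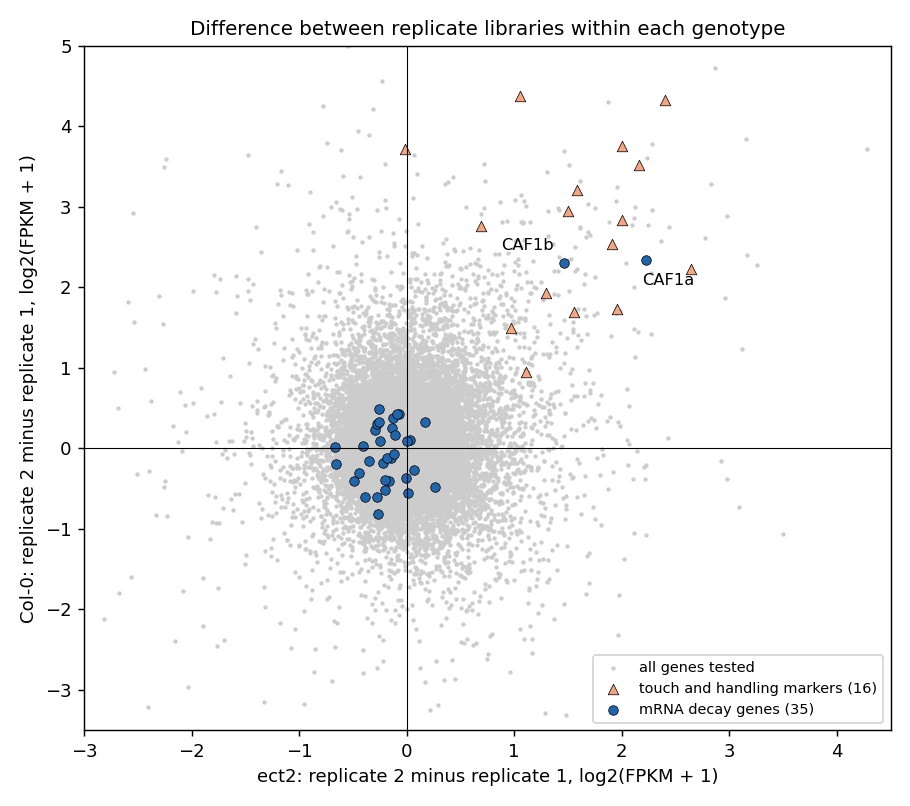
Difference of replicate 2 minus replicate 1 within *ect2* (horizontal) and within Col-0 (vertical), both on the log2(FPKM + 1) scale, for all genes tested (grey), the 16 touch and handling markers (triangles) and the 35 decay genes (blue). *CAF1a* (2.22 in *ect2* and 2.34 in Col-0) and *CAF1b* (1.47 and 2.30) lie among the markers, and the other 33 genes lie near the origin. A further 53 genes fall outside the axis limits.

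The window from 250 bases before to 50 bases after the annotated start of *CAF1b* is shown because this gene varied between libraries together with *CAF1a*. The sequence is RefSeq TAIR10.1, 5′ to 3′ on the minus strand.
*CAF1b*, chr5:7366750-7367049: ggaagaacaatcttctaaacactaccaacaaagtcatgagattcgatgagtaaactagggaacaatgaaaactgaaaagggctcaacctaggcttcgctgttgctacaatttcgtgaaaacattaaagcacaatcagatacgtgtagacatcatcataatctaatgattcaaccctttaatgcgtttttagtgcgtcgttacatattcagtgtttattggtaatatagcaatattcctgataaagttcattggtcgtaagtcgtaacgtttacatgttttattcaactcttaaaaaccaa
The motifs searched, on both strands, were CGCGTT (the rapid stress response element), its core CGCG, which it contains, TTGAC (the core of the W-box bound by WRKY factors), CACGTG (the G-box) and TGGGCC (the site II element). The *CAF1b* window shown holds none of these motifs on either strand. TTGAC occurred in 50.5% of 27443 nuclear protein-coding windows of this length, in 12 of 16 touch markers and in 15 of the 35 decay genes. CGCGTT occurred in 3.40% of all windows, in 4 of 16 touch markers and in 0 of the 35 decay genes, and CGCG in 3555 of all windows, in 5 touch markers and in 4 decay genes. The G-box occurred in 7.68% of all windows and in 4 of the 35 genes. TGGGCC occurred in 15.5% of all windows and in 10 of the 35 genes, namely *DCP2*, *VCS*, *XRN4*, *UPF1*, *UPF3*, *RRP4*, *MTR4*, *VIP3*, AT3G46960 and AT1G76630, and in 0 of 16 touch markers. These are matches of letters in a window and not binding sites. *CAF1a* and *CAF1b* were also the only 2 of the 35 genes annotated with a single exon, as are 19.2% of protein-coding genes, while the others have between 2 and 49 exons.

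In the other 4 genes of the deadenylase group the highest library was 1.41 to 1.75 times the lowest, and 0 passed the test. The median of this ratio was 1.60, beside 1.62 over all genes tested. *PARN* (AT1G55870), a poly(A)-specific ribonuclease, had 4.69 and 3.34 FPKM in *ect2* and 4.60 and 2.68 FPKM in Col-0. It was lower in replicate 2 of each genotype, opposite to *CAF1a*. AT1G02080, annotated as a transcription regulator and with the longest transcript of the 35 genes at 7572 nt, stood at 7.31 and 6.89 FPKM in *ect2* and at 5.21 and 7.33 FPKM in Col-0. AT3G58560 and AT3G58580, both annotated as DNase I-like proteins, lie near each other on chromosome 3. AT3G58560 had 14.6 and 14.7 FPKM in *ect2* and 22.3 and 15.0 FPKM in Col-0, so both *ect2* libraries lay below both Col-0 libraries and Col-0 replicate 1 alone stood high (-0.30 ± 0.27 on the log2 scale, limma, adjusted p = 0.852). AT3G58580 was lower, at 9.84 and 5.88 FPKM in *ect2* and 9.03 and 7.79 FPKM in Col-0, and its 3′ neighbour on the opposite strand overlaps it by 215 bases. The median difference of the 6 genes was -0.21, and over the 4 without *CAF1a* and *CAF1b* it was 0.0053.

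Decapping genes were expressed at moderate levels, and 0 of 7 passed the test (median difference 0.056, 4 positive and 3 negative). *DCP2* (AT5G13570), the decapping enzyme, had the smallest p of the group and the lowest mean level. It had 13.6 and 11.2 FPKM in *ect2* and 7.82 and 11.4 FPKM in Col-0. Only Col-0 replicate 1 was low, and the difference of 0.35 ± 0.27 did not pass (limma, adjusted p = 0.844). Its partners *DCP1* (AT1G08370) and *VCS* (AT3G13300), which form a complex with it, differed by 0.14 ± 0.22 and 0.11 ± 0.24 (SE). *DCP1* stood at 17.0 and 15.3 FPKM in *ect2* and at 15.2 and 13.9 FPKM in Col-0, with *ect2* narrowly above. *VCS* stood at 13.4 and 9.88 FPKM in *ect2* and at 10.5 and 10.7 FPKM in Col-0, so the *ect2* libraries lay on either side of Col-0.

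*DCP5* (AT1G26110), required for decapping and for the formation of processing bodies, was the most abundant of the group. It had 58.2 and 57.8 FPKM in *ect2* and 63.4 and 49.1 FPKM in Col-0. *LSM1A* (AT1G19120) and *LSM1B* (AT3G14080) encode alternative versions of the subunit that distinguishes the cytoplasmic LSM ring, an activator of decapping, from the nuclear ring. *LSM1A* stood at 43.3 and 35.0027 FPKM in *ect2* and at 38.8 and 45.6 FPKM in Col-0. *LSM1B* stood at 17.0 and 17.9 FPKM in *ect2* and at 22.7 and 18.7 FPKM in Col-0, with both *ect2* libraries below both Col-0 libraries (-0.23 ± 0.23, limma, adjusted p = 0.859). The *LSM1A* level was 2.55 and 1.96 times that of *LSM1B* in *ect2* and 1.71 and 2.43 times in Col-0, so the genotypes overlapped. How reads that match both copies were assigned is not stated, which makes the split between close relatives uncertain here and for the PAB and CAF1 genes. AT1G79090, annotated as a topoisomerase II-associated protein, had 16.6 and 13.5 FPKM in *ect2* and 18.9 and 12.1 FPKM in Col-0.

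The XRN genes differed little between libraries, with the highest at most 1.39 times the lowest. *XRN4* (AT1G54490), the cytoplasmic enzyme that also acts in the ethylene response, had 9.47 and 7.62 FPKM in *ect2* and 6.83 and 8.66 FPKM in Col-0. *XRN3* (AT1G75660), a nuclear enzyme whose loss leaves excised loops of microRNA precursors, was the most abundant of the family at 16.6 and 15.1 FPKM in *ect2* and 12.9 and 15.6 FPKM in Col-0. *XRN2* (AT5G42540), also nuclear, stood at 6.83 and 7.82 FPKM in *ect2* and at 6.45 and 8.36 FPKM in Col-0. In all 3 genes the genotypes overlapped and Col-0 replicate 1 was the lowest library. The differences ran from -0.0071 to 0.15 on the log2 scale, with a median of 0.13, and 0 of 3 passed. *XRN3* exceeded *XRN4* by 1.76 and 1.98 times in *ect2* and by 1.89 and 1.80 times in Col-0, with the genotypes overlapping.

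Of the 3 NMD genes described here 0 passed the test. *UPF1* (AT5G47010), the RNA helicase at the centre of the pathway, had 12.2 and 10.3 FPKM in *ect2* and 12.5 and 10.96 FPKM in Col-0. *UPF2* (AT2G39260) was the lowest of the group, at 5.11 and 4.65 FPKM in *ect2* and 4.32 and 4.95 FPKM in Col-0. *UPF3* (AT1G33980), which marks transcripts for surveillance, had 14.1 and 11.6 FPKM in *ect2* and 8.64 and 11.1 FPKM in Col-0. Both *ect2* libraries lay above both Col-0 libraries by a narrow margin, and the difference of 0.35 ± 0.25 did not pass (limma, adjusted p = 0.843).

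**Figure D4:**
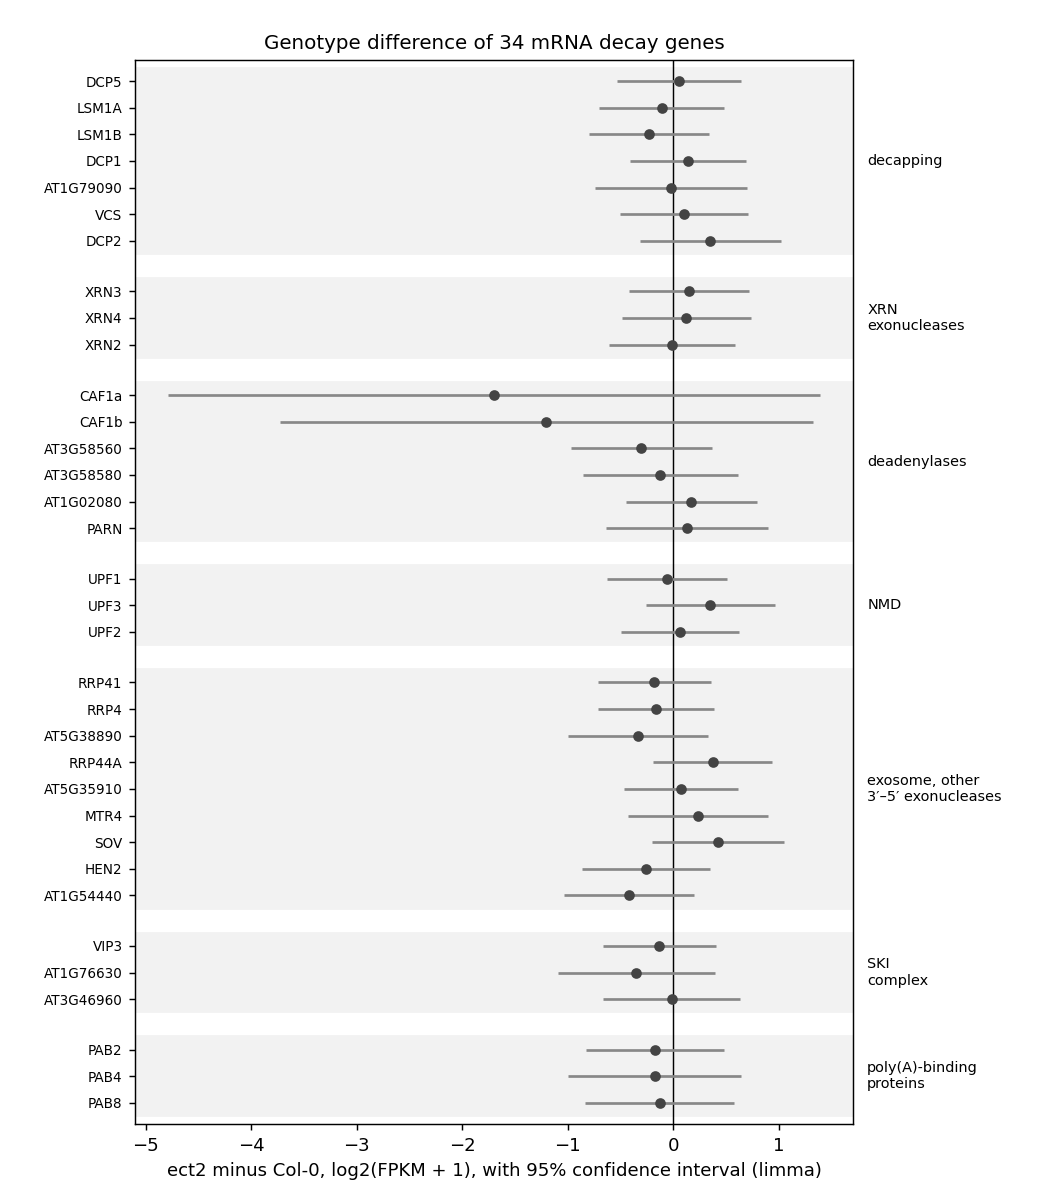
Difference between *ect2* and Col-0 for 34 of the 35 genes on the log2(FPKM + 1) scale (points) with 95% confidence intervals from limma (lines), by functional group. Every interval includes 0, and those of *CAF1a* and *CAF1b* are far wider than the rest.

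The exosome group held the genes with the smallest unadjusted p, and still 0 of 9 passed (median difference -0.16, 4 positive and 5 negative). *SOV* (AT1G77680), a cytoplasmic exonuclease of the RNase II family that works apart from the exosome, had 8.19 and 6.98 FPKM in *ect2* and 6.30 and 4.55 FPKM in Col-0. The Col-0 accession, the background of both genotypes, is known to carry a *SOV* allele with impaired function. *RRP44A* (AT2G17510), a nuclear relative of the same family that associates with the exosome, had 11.1 and 9.22 FPKM in *ect2* and 7.29 and 7.86 FPKM in Col-0. For both genes the *ect2* libraries lay above the Col-0 libraries, by 0.43 ± 0.25 for *SOV* and 0.38 ± 0.23 for *RRP44A* (limma, adjusted p = 0.842 for each).

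In the other direction stood AT1G54440, annotated as an RNase H fold protein with an HRDC domain. It had 3.64 and 3.24 FPKM in *ect2* and 4.21 and 5.77 FPKM in Col-0, both *ect2* libraries below both Col-0 libraries (-0.42 ± 0.25, limma, adjusted p = 0.842). Its relative with the same annotation, AT5G35910, stood at 9.21 and 8.38 FPKM in *ect2* and at 8.51 and 8.07 FPKM in Col-0. AT5G35910 exceeded AT1G54440 by 2.53 and 2.58 times in *ect2* and by 2.02 and 1.3998 times in Col-0.

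The core subunit genes *RRP41* and *RRP4* had mean levels of 14.6 and 12.1 FPKM, with ranges over libraries that did not overlap. *RRP41* (AT3G61620), a subunit of the exosome ring, had 13.5 and 13.8 FPKM in *ect2* and 15.0 and 16.2 FPKM in Col-0. *RRP4* (AT1G03360), an RNA-binding cap subunit, stood at 12.2 and 10.6 FPKM in *ect2* and at 13.4 and 12.3 FPKM in Col-0. In both genes the *ect2* libraries lay below the Col-0 libraries, with differences smaller than their standard errors (-0.18 ± 0.22 and -0.16 ± 0.22). AT5G38890, annotated as an OB-fold nucleic acid-binding protein, had 8.23 and 10.1 FPKM in *ect2* and 14.0 and 9.76 FPKM in Col-0, where Col-0 replicate 1 alone stood high.

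The genes of the nuclear exosome helicases had differences of opposite sign, 0.24 ± 0.27 for *MTR4* and -0.26 ± 0.24 for *HEN2*, and neither passed the test. With 1 library left out the difference lay between 0.013 and 0.46 for *MTR4* and between -0.43 and -0.080 for *HEN2*. *MTR4* (AT1G59760), which acts in ribosomal RNA maturation, had 9.99 and 7.06 FPKM in *ect2* and 7.88 and 6.18 FPKM in Col-0. *HEN2* (AT2G06990), a related helicase that acts on other nuclear transcripts, stood at 5.13 and 3.81 FPKM in *ect2* and at 5.86 and 5.13 FPKM in Col-0. *MTR4* exceeded *HEN2* by 1.95 and 1.86 times in *ect2* and by 1.35 and 1.20 times in Col-0. Of 14 ratios computed between genes of the set, 4 had genotypes that did not overlap, this one, AT5G35910 over AT1G54440, *SOV* over AT1G54440 and *CAF1a* over *CAF1b*. None of these was tested. The ratio of *SOV* to AT1G54440 had to separate, since both *ect2* libraries lay above Col-0 for *SOV* and below for AT1G54440. Among single genes 17.5% had both *ect2* libraries above and 20.2% had both below. No such share was computed for ratios, so no conclusion is drawn from the count.

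The SKI complex joined the lowest genes of the set with a far more abundant one. *VIP3* (AT4G29830), the homologue of yeast SKI8 and also a part of the PAF1 transcription complex, had 25.7 and 25.7 FPKM in *ect2* and 27.2 and 29.2 FPKM in Col-0. AT3G46960, annotated as an RNA helicase of the SKI2 type, stood at 2.38 and 2.18 FPKM in *ect2* and at 1.84 and 2.84 FPKM in Col-0. AT1G76630, annotated as a tetratricopeptide repeat protein, stood at 3.08 and 1.57 FPKM in *ect2* and at 3.09 and 3.15 FPKM in Col-0. Here *ect2* replicate 2 alone was low, and *ect2* replicate 1 was level with Col-0 (-0.35 ± 0.30, limma, adjusted p = 0.849). *VIP3* exceeded AT3G46960 by 10.8 and 11.8 times in *ect2* and by 14.8 and 10.3 times in Col-0. A pair of annotated neighbours on the opposite strand overlap *VIP3*, which spans 1742 bases. Their overlaps add up to 701 bases, where any base under both neighbours is counted for each. The labels do not say whether counting used strand, so the *VIP3* level is uncertain. Of the 35 genes, 10 overlap a neighbour. The median difference of the group was -0.13, and 0 of 3 passed.

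The poly(A)-binding protein genes were abundant in every library. *PAB2* (AT4G34110) had 151 and 132 FPKM in *ect2* and 189.6 and 133 FPKM in Col-0. *PAB4* (AT2G23350) stood at 86.8 and 71.8 FPKM in *ect2* and at 119 and 67.2 FPKM in Col-0. *PAB8* (AT1G49760) stood at 73.4 and 52.0 FPKM in *ect2* and at 78.1 and 58.5 FPKM in Col-0. In all 3 genes Col-0 replicate 1 was the highest library and the genotypes overlapped, with a median difference of -0.17 and 0 of 3 passing. Their order was the same in all 4 libraries, and *PAB2* exceeded *PAB4* by 1.74 and 1.83 times in *ect2* and by 1.60 and 1.97 times in Col-0. The other members of the family, *PAB1*, *PAB3*, *PAB5*, *PAB6* and *PAB7*, were listed at no more than 1.07 FPKM in any library and did not reach the minimum for testing. *PAB1* was listed at 0 in all 4 libraries.

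Several genes of the set shared their order between libraries. Replicate 2 lay below replicate 1 in *ect2* for 28 of 35 genes, beside 56.3% of all genes tested, and in both genotypes for 15 of 35, beside 25.1% of all genes tested. In no member was *ect2* replicate 2 the highest library, as it was for 14.9% of all genes tested, and *ect2* replicate 1 was the highest for 14 of 35, beside 27.8%. For the 33 genes other than *CAF1a* and *CAF1b* the median absolute difference between replicates was 0.20 in *ect2* and 0.31 in Col-0, beside 0.23 and 0.34 over all genes tested (log2 scale). The median absolute genotype difference of these 33 was 0.16, beside 0.23 over all genes tested.

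A wider list of 52 further genes of the same pathways, of which 47 were tested, gave a similar picture. None of the 47 passed over all genes. At an unadjusted p below 0.05 (limma) there were 2 of the 47, beside 4.86% of all genes tested. The median difference of the 47 was -0.00056 (23 positive, 24 negative). The genes with the smallest p were 2 of the CCR4-NOT list, 3 LSM genes and *URT1*. AT5G10960, with the same RefSeq product as *CAF1a* and *CAF1b*, had 307 and 226 FPKM in *ect2* and 163 and 173 FPKM in Col-0 (0.65 ± 0.25, limma, adjusted p = 0.842). It was thus more abundant than *CAF1a* in 3 of 4 libraries and did not share its pattern between replicates. AT1G15920, with that product too, stood at 25.5 and 18.9 FPKM in *ect2* and at 10.95 and 17.1 FPKM in Col-0.

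Among the LSM genes, *LSM5* (AT5G48870), a subunit of both LSM rings, had 54.0 and 63.2 FPKM in *ect2* and 90.3 and 83.7 FPKM in Col-0 (-0.57 ± 0.22, limma, adjusted p = 0.842). *LSM6A* (AT3G59810) stood at 38.4 and 35.8 FPKM in *ect2* and at 55.4 and 45.1 FPKM in Col-0, and *LSM7* (AT2G03870) at 65.3 and 52.6 FPKM in *ect2* and 76.2 and 77.1 FPKM in Col-0. In these 3 genes both *ect2* libraries lay below both Col-0 libraries, as in 7 of the 15 genes on the list of further decapping and LSM genes and in 20.2% of all genes tested. *URT1* (AT2G45620), which adds uridines to shortened poly(A) tails, had 29.1 and 21.8 FPKM in *ect2* and 14.0 and 21.7 FPKM in Col-0 (0.50 ± 0.30, limma, adjusted p = 0.842).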

How the data were processed

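The submitters' processing notes name cutadapt, TopHat and the TAIR10 build and give no versions; the program that computed the values is not given in the sources used here. Each library has a table deposited by the authors, whose values are taken to be FPKM. This unit is inferred, since the values are not whole numbers and sum to different totals, all above that of TPM. Per the labels' protocols, mRNA was isolated with oligo(dT) beads.

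The filter kept 19308 of 33544 genes, those that reached 1 FPKM in 2 or more of the 4 libraries. Their log2(FPKM + 1) values were fitted with limma 3.58.1 (R 4.3.3) using a trend and robust estimation, two-sided, with Benjamini-Hochberg adjustment over all genes tested at 0.05. A fold on this scale understates the change of low genes. Groups came from the sample titles. Relative depth came from low values, under 0.4 FPKM, as the commonest ratio between libraries. No 2 libraries held identical values.

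Members and lists were chosen with earlier results of these data known. Counts cover all 35 members and their windows; 1 member and the *CAF1a* window are not reported here by themselves, and the text describes the other 34, with the 6 further pathway genes of smallest p. *ZAT10*, *ERF5*, *TCH3* and *PAB1* to *PAB7* were chosen after their values were seen, as were the motifs. Positions, exons and sequences come from RefSeq TAIR10.1, matched by locus tag (35 of 35). Most names are RefSeq symbols too. RefSeq lists *PARN* as *AHG2*, *UPF1* as *LBA1* and *RRP44A* as *EMB2763*, and gives no symbol for *UPF2* and *SOV*. The files hold no coordinates. The replicate spread bears on every value, and the closing section gives the alternatives.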

Additional observations from a re-analysis of the deposited data

How the results depend on the processing

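None of the 35 genes passed under any of the 11 alternatives (adjusted p between 0.250 and 1.00, limma), namely each library left out in turn, a replicate block, a pseudocount of 0.1, no filter, a minimum of 5 FPKM, equal library medians, quantile normalization and limma without trend. At an unadjusted p below 0.05 there was 1 member without Col-0 replicate 1 (*SOV*), beside 6.46% of all genes, and there were 2 with the block (*CAF1a* and *CAF1b*), beside 4.74%. In the other alternatives there were 0 members, beside 20.8% of all genes without Col-0 replicate 2 and 1.49% to 5.04% in the rest. Apart from leaving out a library, none of them turned the direction of a member described, and with the minimum of 5 FPKM 30 members were tested and the exosome median was -0.044. Over all genes, 5 were called. Omitting Col-0 replicate 1 gave 11 calls, omitting Col-0 replicate 2 gave 520, and omitting an *ect2* library gave 0 (284 at an unadjusted p below 0.05 when it was replicate 1 and 431 when it was replicate 2), a range of 0 to 520, while calls among the members stayed at 0. The cause was not tested. Leaving out a library turned the sign of 15 of the 34 members described, 4 and 6 when *ect2* replicate 1 or 2 was omitted, and 8 and 5 when Col-0 replicate 1 or 2 was omitted. Over the libraries left out their differences were -0.094 to 0.31 for *VCS*, -0.13 to 0.24 for *DCP5*, -0.32 to 0.28 for AT1G79090, -0.26 to 0.042 for *LSM1A*, -0.025 to 0.28 for *XRN4*, -0.17 to 0.16 for *XRN2*, -0.041 to 0.38 for AT1G02080, -0.17 to 0.43 for *PARN*, -0.45 to 0.21 for AT3G58580, -0.17 to 0.051 for *UPF1*, -0.018 to 0.14 for *UPF2*, -0.23 to 0.21 for AT3G46960, -0.43 to 0.087 for *PAB2*, -0.58 to 0.23 for *PAB4* and -0.37 to 0.12 for *PAB8*. Group medians ranged from -0.094 to 0.12 for decapping, -0.025 to 0.28 for XRN, -0.43 to 0.087 for poly(A)-binding protein, -0.37 to -0.033 for deadenylase, -0.16 to -0.073 for exosome and -0.23 to -0.014 for SKI genes. Of the 19 members described that kept their sign, 17 moved by over 1.5 times when 1 library was left out, all but *RRP41* and *RRP44A*. *CAF1a* ranged from -2.87 to -0.53 and *CAF1b* from -2.35 to -0.048.

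Deviations of libraries with the same replicate number had a correlation of 0.0138 over genes. A correlation over all genes cannot tell whether some genes shared a deviation. The labels do not say whether a number marks a shared batch, and this was not tested. With the number as a replicate block, 6 genes were called and 0 members, and *CAF1a* (-1.70 ± 0.26, adjusted p = 0.504, limma) and *CAF1b* (-1.20 ± 0.32, adjusted p = 0.902, limma) had unadjusted p-values of 0.000819 and 0.0115. The level in *ect2* was 0.315 and 0.295 times that in the Col-0 library of the same number for *CAF1a*, and 0.549 and 0.315 times for *CAF1b*. With 2 libraries a genotype and no block, an exact permutation test cannot go below 0.333. This floor is not that of a test with the block.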
